A study of Macaca fascicularis with 2 samples.

Results

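Interferon-stimulated genes were examined in fetal ovary cells of the monkey Macaca fascicularis. The set was fixed as 40 named genes, and every row of the count table with one of these names was taken, over all cells. Of the 40 genes, 36 had a row under their name among the 18446 genes of the table, and IFIT5, IFITM3, OAS1 and USP18 were not analysed here. All 36 had at least 30 unique molecular identifiers (UMIs, the count of distinct captured RNA molecules) over all cells, from 113 for OASL to 367702 for IFI27.

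Ovaries were taken from 1 female fetus at embryonic day 84 (E84) and from 1 at E116, with no treatment or genetic change named in the labels. Both ovaries of a fetus were digested with enzymes and made into 1 library of 3′ single-cell RNA sequencing (10x Genomics v3), which counts the ends of polyadenylated transcripts. The 20967 cells carry a barcode ending, 1 or 2, that marks the library, but neither the table nor the labels tie an ending to a stage, so every comparison below is between 2 libraries and not between 2 ages. With 1 library for each ending there is no replicate, cells of a library are not replicates, and no test was made. Differences are therefore given as counts of genes past 2-fold, beside the same share over all genes, and each interval is an exact 95% interval that covers counting error only.

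Ending 1 held 10621 cells with a median of 3130 UMIs and ending 2 held 10346 cells with a median of 4555.5 UMIs. Only 27 barcodes occurred with both endings. Cells were clustered without the interferon-stimulated genes and named from marker genes, so that names rebuilt here may differ from those of the study. The named classes were germ cell-like (6285 cells), stroma-like (4580), granulosa-like (4465), ovarian surface epithelium-like (1263), erythroid-like (744), endothelial-like (546), macrophage-like (246) and pericyte-like (133). The macrophage-like cluster also passed 9 of 11 lymphocyte markers, and JCHAIN, an immunoglobulin joining chain, was among its leading genes. A further 3 clusters stayed unnamed, among them cluster 7 (1002 cells, all ending 2), which passed 5 granulosa markers but had a marker of another class and no granulosa marker among its leading genes.

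Interferons are cytokines released by cells that sense viral nucleic acid. They bind receptors at the cell surface, whose JAK and TYK kinases activate STAT proteins such as STAT2. With IRF9 these switch on a broad set of genes whose products block viral entry, translation and replication, degrade RNA, tag proteins with the ubiquitin-like ISG15, and raise antigen presentation. In uninfected tissue many of these genes are kept at a low basal level, and some are expressed in a cell type without any interferon.

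The set made up 0.235% of all UMIs with ending 1 and 0.720% with ending 2. IFI27, which codes for a small mitochondrial membrane protein, alone took 0.0939% and 0.350%. Levels are given as CPM, the UMIs of a gene over all UMIs of a cell group times 1e+06, and are compared between groups and not between genes, because 3′ counting carries no length scale. The heat map of levels by cell class shows higher levels with ending 2 than with ending 1 in the stroma-like and endothelial-like columns, over most roles.

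**Figure D1:**
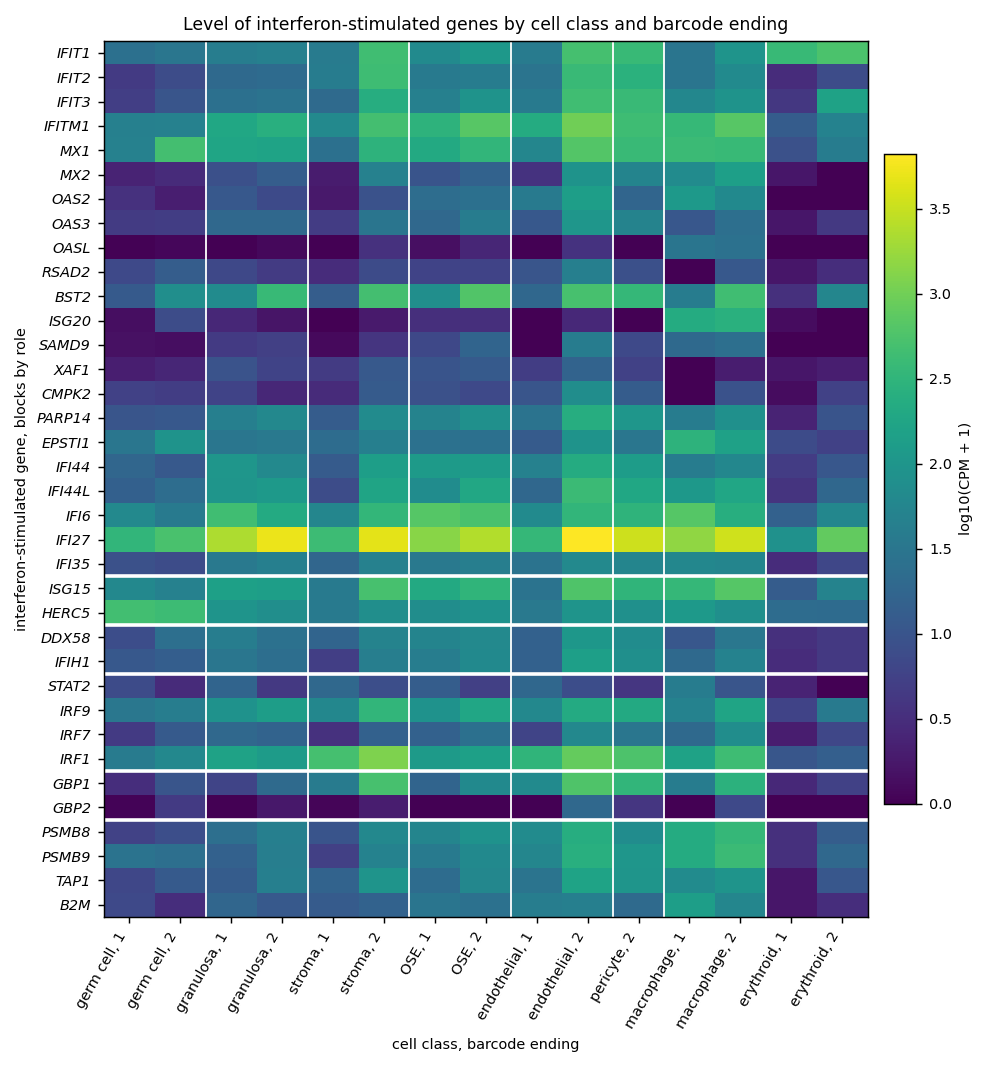
Level of the 36 interferon-stimulated genes in each named cell class and barcode ending, as log10 of CPM plus 1, with genes in blocks by role and ovarian surface epithelium written as OSE. IFI27 is the brightest line, HERC5 stands out in germ cells, and ISG20 and OASL stand out in macrophage-like cells; pericyte-like cells of ending 1 (10 cells) are left out.

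Over both endings together, endothelial-like cells had the highest level of 22 of the 36 genes, whereas they were the highest class for 10.3% of all genes with as many UMIs. With each cell thinned to 1000 UMIs they were highest for 14 of the 34 genes that could then be compared. For 15 of the 22 the interval did not overlap that of the next class. They include the antiviral effectors IFIT2, IFITM1, MX1, OAS2, OAS3, RSAD2 and CMPK2, the RNA sensor IFIH1, the guanylate-binding proteins GBP1 and GBP2, and the peptide transporter TAP1. CMPK2, a mitochondrial nucleotide kinase, and RSAD2 (viperin), which makes a chain-terminating nucleotide, are neighbours in the genome. CMPK2 was at 65.6 CPM (59.0 to 72.8) in endothelial-like cells and 11.6 CPM (5.03 to 22.9) in pericyte-like cells, the next class. RSAD2 was at 38.6 CPM (33.6 to 44.2) in endothelial-like cells against 9.19 CPM (4.41 to 16.9) in macrophage-like cells. GBP2 was at 15.8 CPM (12.6 to 19.5) against 5.51 CPM in the same pair of classes. These 3 genes thus stood at least 2.87 times above the next class.

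Macrophage-like cells had the highest level of 10 of the 36 genes, with 13.0% of all genes highest there, and the intervals stood apart for 8 of the 10. All of the set's antigen-processing genes but TAP1 are among them. PSMB8 and PSMB9, catalytic subunits of the immunoproteasome, were at 338 CPM (305 to 375) and 384 CPM (348 to 423), and at 215 CPM and 227 CPM in endothelial-like cells. B2M, the light chain of class I molecules, was at 64.3 CPM (50.1 to 81.3) against 42.8 CPM (37.5 to 48.7) in endothelial-like cells. ISG15 was at 615 CPM (569 to 663) against 513 CPM (494 to 532), and MX2, a dynamin-like GTPase that blocks nuclear entry of some viruses, at 137 CPM (116 to 161) against 79.2 CPM (71.9 to 87.1).

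ISG20, a 3′ to 5′ RNA exonuclease also known from B and plasma cells, showed the sharpest step. It was at 224 CPM (142 to 337) in macrophage-like cells of ending 1 and 268 CPM (237 to 302) in those of ending 2, and its level over both endings was 75.4 times that of germ cell-like cells, the next class, at 3.50 CPM. After each cell was thinned to 1000 UMIs, 17.9% and 23.1% of macrophage-like cells of endings 1 and 2 held an ISG20 UMI, against 0.228% of erythroid-like cells of ending 1 and 0 of 212 of ending 2, which allows a share of up to 1.42%. Without thinning the macrophage-like shares were 22.5% and 50.0%. In erythroid-like cells of endings 1 and 2, summed erythroid markers took 493595 CPM and 393670 CPM. This leaves fewer UMIs for other genes at equal depth, a limit on every erythroid-like level and share given in the text. OASL, a catalytically inactive relative of the oligoadenylate synthetases, was at 25.7 CPM (17.1 to 37.2) in macrophage-like cells and 2.21 CPM (1.14 to 3.85) in endothelial-like cells. The intervals of both genes overlapped between endings in macrophage-like cells, OASL being at 29.3 CPM (6.04 to 85.5) and 25.4 CPM (16.4 to 37.4). The part that the lymphocyte-marked cells of this cluster have in the ISG20 level was not tested.

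The remaining genes peaked elsewhere. IRF1, a transcription factor induced early by interferon gamma, and IRF9 were highest in stroma-like cells, the highest class for 8.12% of all genes. IRF1 was at 985 CPM (972 to 997) there and 768 CPM (745 to 792) in endothelial-like cells, while the IRF9 intervals of stroma-like (237 to 250 CPM) and pericyte-like cells (170.1 to 239 CPM) overlapped. IFI6, a mitochondrial and endoplasmic reticulum protein that protects cells from apoptosis, was highest in ovarian surface epithelium-like cells, at 594 CPM (581 to 607) against 352 CPM in granulosa-like cells. HERC5, the ligase that attaches ISG15 to newly made proteins, was highest in germ cell-like cells, at 442 CPM (436 to 448), which was 5.06 times the 87.4 CPM of granulosa-like cells. Granulosa-like, pericyte-like and erythroid-like cells led for none of the 36 genes over both endings. Of all genes, 12.2%, 11.4% and 0.479% were highest in these classes.

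The ranking depended on the library. Within ending 2 endothelial-like cells led for 19 of 36 genes, macrophage-like cells for 10, stroma-like cells for 3 and ovarian surface epithelium-like cells for 2, with 11.2%, 12.8%, 8.66% and 11.6% of all genes highest in these classes. Within ending 1, where macrophage-like and pericyte-like cells were too few to rank, ovarian surface epithelium-like cells led for 15 of 34 genes (13.6% of all genes), endothelial-like cells for 8 (16.7%), granulosa-like cells for 6 (18.8%) and stroma-like cells for 3 (13.9%). The median level over the genes in endothelial-like cells was 27.8 CPM with ending 1 and 155 CPM with ending 2. In ovarian surface epithelium-like cells it was 37.9 CPM and 62.5 CPM. The lead of endothelial-like cells over both endings therefore came mostly from the cells of ending 2, 399 of the 546.

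IFIT1, which binds viral RNA lacking a methylated cap, was the exception in both endings. Its highest class was erythroid-like cells, with 374 CPM (352 to 397) in ending 1 and 543 CPM (496 to 594) in ending 2, where the interval overlapped that of endothelial-like cells. The neighbouring family member IFIT2 was at 2.08 CPM (0.765 to 4.54) and 6.65 CPM (2.44 to 14.5) in the same cells, and IFIT3 at 3.13 CPM (1.43 to 5.94) and 159.7 CPM (135 to 188). After thinning, 23.2% and 31.6% of erythroid-like cells held an IFIT1 UMI (53.0% and 54.2% without thinning), against 2.82% and 3.23% of germ cell-like cells. How reads shared between IFIT1 and its close relatives, or between IFITM1 and the other IFITM genes, were counted is not given in the sources used here.

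The stroma-like cells of the 2 endings differed in nearly all measured genes of the set. Of the 34 genes with at least 30 UMIs in this class, 31 were at least 2-fold higher with ending 2 and 1, STAT2, was at least 2-fold higher with ending 1, while 4.94% and 8.65% of all genes differed as much in these directions. The median gene of the set was 7.70-fold higher with ending 2, or 7.25-fold with OASL set at the limit of 3 counts, against 0.955-fold for all genes, and 25 genes passed 4-fold. The filter bears on this count, since 7 genes, MX2, OAS2, OASL, RSAD2, SAMD9, CMPK2 and IRF7, had under 30 UMIs with ending 1 and passed only through ending 2, from OASL (0 and 42 UMIs) to MX2 (8 and 796 UMIs). Of the 27 genes with 30 UMIs in ending 1 itself 24 were higher with ending 2, and with a minimum of 100 UMIs in both endings together 29 of 32 were. GBP2 and ISG20, with 18 or fewer UMIs in the class, were not compared.

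By role, 20 of 21 antiviral effectors were higher with ending 2. BST2 (tetherin), which holds budding virus at the cell surface, was at 12.6 CPM with ending 1 and 486 CPM with ending 2, a ratio of 38.7 (31.8 to 47.4). MX2 was at 0.977 CPM with ending 1 and 47.1 CPM with ending 2, a ratio of 48.2 (24.3 to 112). IFI44L, an interferon-induced cytoplasmic protein, was at 6.72 CPM and 172 CPM, a ratio of 25.6 (19.6 to 34.1). These 3 genes had the highest ratios with counts in both endings.

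The more abundant effectors mostly had ratios near one another. IFIT1, IFIT2 and IFIT3, which act in 1 complex, were at 37.4, 39.0 and 19.7 CPM with ending 1 and at 439.8, 427 and 242 CPM with ending 2. Their ratios were 11.8 (10.5 to 13.2), 11.0 (9.79 to 12.3) and 12.3 (10.5 to 14.5). MX1, the GTPase that traps viral nucleoproteins, was at 24.7 CPM and 295 CPM, a ratio of 11.9 (10.4 to 13.8), and IFI27 at 411 CPM and 4614 CPM, a ratio of 11.2 (10.8 to 11.6). IFITM1, which hinders fusion of viral envelopes, was at 63.0 CPM and 481 CPM, a ratio of 7.63 (6.98 to 8.35). EPSTI1, at 21.9 CPM and 43.1 CPM, was the effector that stayed below 2-fold.

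In the other roles, ISG15 was at 35.8 CPM and 518 CPM, a ratio of 14.5 (12.9 to 16.3), whereas its ligase HERC5 was at 35.1 CPM and 76.1 CPM, a ratio of 2.17 (1.91 to 2.48). The RNA sensors IFIH1 (MDA5) and DDX58 (RIG-I) had ratios of 10.1 (7.16 to 14.7) and 3.15 (2.62 to 3.82). GBP1, which coats intracellular pathogens, was at 37.6 CPM and 516 CPM, a ratio of 13.7 (12.2 to 15.4). Among antigen-processing genes PSMB9 differed by 11.3 (8.07 to 16.4), PSMB8 by 6.89 (5.42 to 8.88) and TAP1 by 5.96 (4.98 to 7.20), while B2M, at 11.5 CPM and 15.0 CPM, had a ratio of 1.31 (1.03 to 1.68).

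The transcription factors split. IRF9 was at 57.7 CPM and 333 CPM, a ratio of 5.78 (5.26 to 6.36), IRF7, which amplifies interferon production, at 2.57 CPM and 14.7 CPM, and IRF1 at 500.2 CPM and 1219 CPM, a ratio of 2.44 (2.36 to 2.52). STAT2, the partner of IRF9 in the same complex, ran the other way, at 18.6 CPM with ending 1 and 7.33 CPM with ending 2, so that it was 2.53-fold (1.98 to 3.24) higher with ending 1.

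Stroma-like cells of ending 1 lay mostly in cluster 2 (1830 cells) and those of ending 2 in cluster 0 (2435 cells), whose leading genes include IFIT2 and GBP1. The direction was the same within each stroma-like cluster. In cluster 2, 25 of 27 genes were higher in its 92 cells of ending 2 (6.05% of all genes), and in cluster 18, with 77 and 115 cells, 22 of 26 were (8.74%). In cluster 0, with only 31 cells of ending 1, 28 of 34 were (20.6%). There only IFI27 (147 UMIs) and IRF1 (174 UMIs) met the minimum for a measured gene in ending 1 itself. Their ratios were 7.15 (6.08 to 8.46) and 1.66 (1.43 to 1.94). In cluster 18 only IFI6, IFI27 and IRF1 met it, with ratios of 3.12, 14.2 and 1.54. OAS2, OASL, SAMD9 and CMPK2 had no UMI with ending 1 in cluster 0, and IRF7 and B2M had 1 each. They were counted as higher although their intervals include equal levels. MX2 and IFIH1 also had no UMI with ending 1 there, with intervals above equal levels. Summed markers of other classes in stroma-like cells moved in both directions between endings. Oogenesis germ cell markers were at 16.2 CPM and 79.7 CPM, RA-responsive germ cell markers at 26.0 CPM and 38.4 CPM and Schwann cell markers at 37.4 CPM and 58.2 CPM. Macrophage markers were at 13.6 CPM and 13.7 CPM, lymphocyte markers at 1.71 CPM and 2.72 CPM with 6 and 3 of 11 markers at 0, endothelial markers at 73.8 CPM and 62.7 CPM, and erythroid markers at 906 CPM and 159 CPM. The part of such markers in the ratios was not tested.

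**Figure D2:**
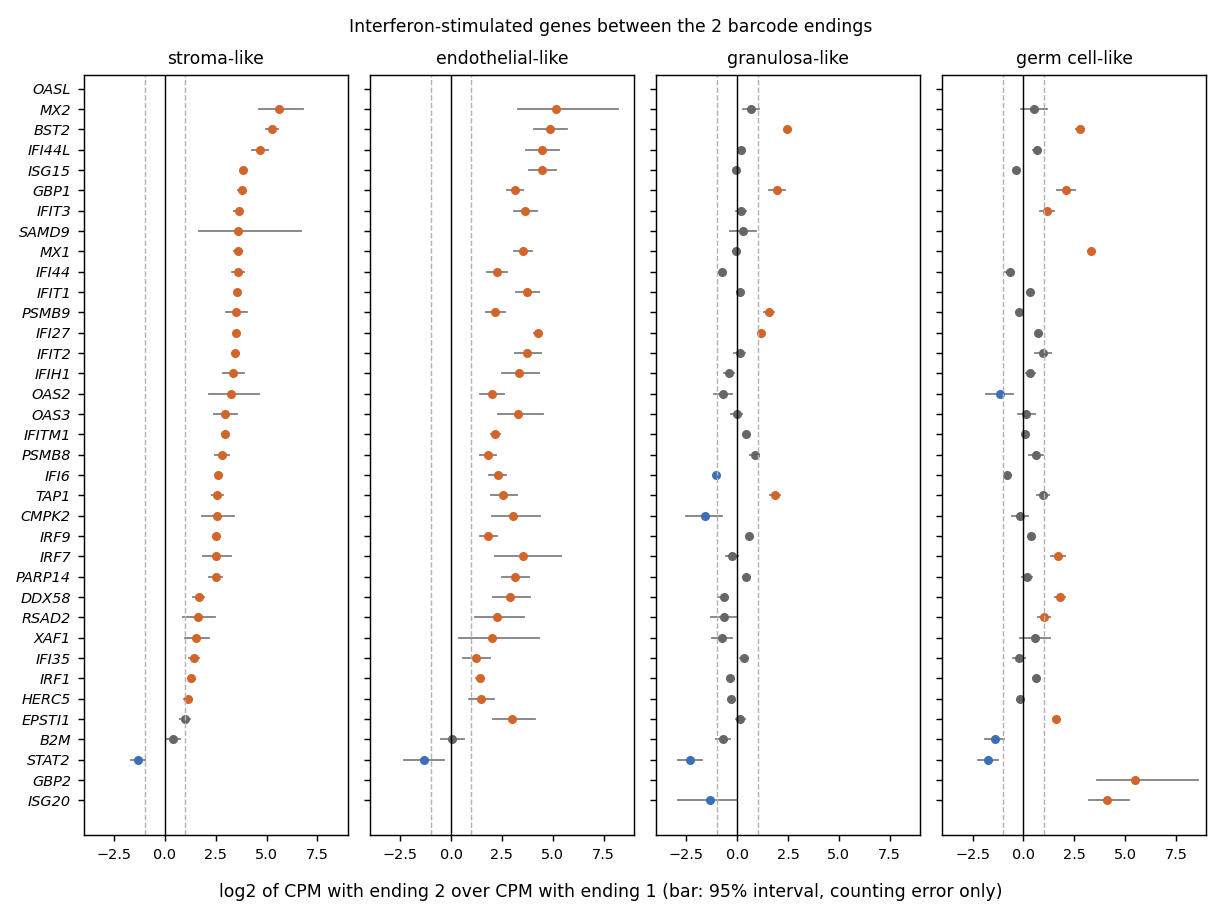
Log2 ratio of the level with ending 2 over that with ending 1 for each gene with UMIs in both endings and at least 30 in the class, with exact 95% intervals for counting error as bars and 2-fold as dashed lines. Orange marks at least 2-fold higher with ending 2 and blue at least 2-fold higher with ending 1; nearly all points are orange in stroma-like and endothelial-like cells, most are gray in granulosa-like and germ cell-like cells, STAT2 is blue in every panel, and OASL has no point in any.

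Endothelial-like cells showed the same breadth. Of 34 genes, 32 were at least 2-fold higher with ending 2 (7.82% of all genes) and 1, STAT2, with ending 1 (6.07%), and the median ratio was 8.07, or 7.63 with SAMD9 and GBP2, both without a UMI in ending 1, at the limit of 3 counts. All genes had a median of 1.01. At the depth of ending 1, 23 of the 34 genes had under 30 UMIs there and passed only through ending 2, among them MX2 (2 and 429 UMIs), BST2 (14 and 2426 UMIs), ISG15 (21 and 2769 UMIs) and also STAT2 (14 and 33 UMIs). Of the 11 genes with 30 UMIs in ending 1 itself 10 were higher with ending 2, and with a minimum of 100 UMIs in both endings together 30 of 31 were. ISG15 was at 27.2 CPM and 593 CPM, a ratio of 21.8 (14.3 to 35.4). IFI27 was at 348 CPM and 6666 CPM, a ratio of 19.2 (17.0 to 21.7), and BST2 at 18.1 CPM and 519.8 CPM, a ratio of 28.7 (17.1 to 52.6). The ratios of these 3 genes were above those of IRF9 and IRF1. IRF9 differed by 3.53 (2.63 to 4.84) and IRF1 by 2.69 (2.36 to 3.07), and B2M by 1.04 (0.714 to 1.56). Endothelial-like cells of ending 1 were 147 in number with 773425 UMIs, and summed stroma and erythroid markers in them were at 6276 CPM and 7499 CPM, against 2684 CPM and 1233 CPM with ending 2. The part that this has in the ratios was not tested.

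Ovarian surface epithelium-like cells differed in fewer genes. Of 34 genes, 8 were at least 2-fold higher with ending 2 (3.59% of all genes) and 1, STAT2, with ending 1 (6.45%), with a median ratio of 1.56. BST2 had the highest ratio, at 75.7 CPM and 603 CPM, a ratio of 7.97 (7.26 to 8.76), followed by GBP1 at 16.0 CPM and 64.2 CPM, a ratio of 4.02 (3.24 to 5.01). MX1 had a ratio of 1.56 (1.46 to 1.67) and ISG15 of 1.52 (1.43 to 1.63). IFI6 was at 656 CPM and 539 CPM, which is 1.22-fold (1.17 to 1.27) higher with ending 1.

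In granulosa-like cells 5 of 34 genes were at least 2-fold higher with ending 2 (5.22% of all genes) and 4 with ending 1 (19.1%), with a median ratio of 1.04. The 5 were BST2, at 69.4 CPM and 381 CPM, a ratio of 5.49 (5.12 to 5.89), GBP1 (3.88), TAP1 (3.62), PSMB9 (2.93) and IFI27, at 2226 CPM and 5079.8 CPM. The 4 were STAT2, at 16.1 CPM and 3.25 CPM, CMPK2, ISG20 (24 and 6 UMIs) and IFI6, at 439.8 CPM and 213 CPM. Among cells so named, ISG15 and MX1 had nearly the same level in both endings, with ratios of 0.943 (0.880 to 1.01) and 0.943 (0.884 to 1.01). The class leaves out the unnamed clusters 7 and 11, both of ending 2 only. Cluster 11 (817 cells), led by CBLN2, passed 3 granulosa and 5 pericyte markers. ISG15 was at 320 CPM in cluster 7 and 257 CPM in cluster 11, against 148 CPM and 140 CPM in granulosa-like cells of endings 1 and 2.

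The granulosa-like cells of the 2 endings lay in different clusters, so the values are also given by cluster. Cluster 1 held 2138 cells of ending 1 and was led in part by the immediate early genes EGR4 and DUSP2. Cluster 4 held 1690 cells of ending 2 and was led by mitochondrial genes, and the median mitochondrial share of granulosa-like cells was 10.5% with ending 1 and 41.8% with ending 2. Summed immediate early and heat shock genes were at 17615 CPM and 7523 CPM. BST2 was at 74.7 CPM in cluster 1, 232 CPM in cluster 4, 439.7 CPM in cluster 14 and 677 CPM in the unnamed cluster 7. GBP1 was at 5.81, 21.8, 16.8 and 36.8 CPM in the same clusters. IFI6 was at 435 CPM in cluster 1 and 98.4, 299 and 273 CPM in the others.

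Cluster 14, whose leading genes include AMH and CYP19A1, held both endings (102 and 499 cells). Within it 16 of 28 genes were higher with ending 2, where 11.7% of all genes were, and the median ratio was 2.13. Only IFITM1, MX1, EPSTI1, IFI6 and IFI27 met the minimum for a measured gene in ending 1 itself. Of these only IFI27 was at least 2-fold higher with ending 2. The rest of the 16 passed the minimum only with the UMIs of ending 2 added. Among them, the intervals of OAS2, OAS3, IFIT3 and IFIH1 include equal levels. BST2 was at 36.0 CPM and 467 CPM in this cluster, a ratio of 13.0 (7.73 to 23.8), and ISG15 at 71.9 CPM and 152 CPM, a ratio of 2.11 (1.45 to 3.20). EPSTI1, at 116 CPM and 38.0 CPM, was the gene at least 2-fold higher with ending 1.

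Germ cell-like cells differed in fewer genes than stroma-like and endothelial-like cells. Of 34 genes, 10 were at least 2-fold higher with ending 2 (10.0% of all genes) and 3 with ending 1 (10.6%), and the median ratio was 1.45. The minimum was met through ending 2 only by 3 genes, and of the 31 that met it in ending 1 itself 8 were higher with ending 2. The 3 genes higher with ending 1 were STAT2, B2M and OAS2. GBP2 had 2 UMIs with ending 1 and 88 with ending 2, a ratio of 45.4 (12.2 to 380.4), and ISG20 had 10 and 168, a ratio of 17.3 (9.19 to 36.8). MX1 was at 47.0 CPM and 472 CPM, a ratio of 10.1 (9.47 to 10.7). DDX58 was at 6.97 CPM and 24.2 CPM, a ratio of 3.47 (2.93 to 4.12). The class is mixed. Of its 6285 cells 1770 (1595 and 175) lay in 2 sub-clusters that were given no stage, one of 1303 cells with 7 stroma markers, led by HBB and collagen genes such as COL1A2, and one of 467 cells with 6 stroma and 5 granulosa markers. Without these cells, a choice made after seeing the data, 18 of 33 genes were at least 2-fold higher with ending 2 (12.1% of all genes), MX1 had a ratio of 18.3 (16.8 to 20.05) and DDX58 of 10.4 (7.55 to 14.5). Among the 18, IFIT2, IFIT3, MX2, OAS3, ISG20, XAF1, IRF7, GBP1 and GBP2 had under 30 UMIs with ending 1. They passed the minimum only with the UMIs of ending 2 added. In the whole class summed macrophage markers were at 24.0 CPM and 172 CPM, endothelial markers at 150.2 CPM and 441 CPM, and stroma markers at 896 CPM and 428 CPM, and their part in the ratios was not tested. GBP2, ISG20, MX1 and DDX58 had their highest germ cell level in oogenesis-like cells of ending 2, a stage that held 20 cells of ending 1 and 651 of ending 2.

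Germ cells were split by markers into mitotic-like (253 cells), RA-responsive (1548), meiotic-like (2043) and oogenesis-like cells (671). In RA-responsive cells (germ cells entering meiosis under retinoic acid), 2 of 25 genes, BST2 and IFIT1, were at least 2-fold higher with ending 2 (5.13% of all genes). In meiotic-like cells 10 of 26 were (8.30%), among them BST2 at 2.09 CPM and 39.1 CPM, a ratio of 18.7 (9.94 to 39.6), and IFI27 at 93.6 CPM and 347 CPM, a ratio of 3.71 (3.34 to 4.13). Meiotic-like cells of ending 1 held 4774289 UMIs, so BST2 passed the minimum for a measured gene only with the UMIs of ending 2 added. How many of the higher genes of these stages met the minimum in ending 1 itself was not counted. The part of free RNA in low germ cell values was not tested. In the stages, the median gene was at 14.4% to 19.3% of its all-cell level with ending 1 and 6.29% to 11.3% with ending 2. In erythroid-like cells it was at 9.81% and 12.7%, and 1 and 2 genes of the set reached their all-cell level there. How much of the erythroid-like level is free RNA was not tested. BST2 was at 56.6 CPM in erythroid-like cells of ending 2 and 39.1 CPM in meiotic-like cells of that ending. The part of free RNA in the meiotic-like BST2 ratio was not tested.

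**Figure D3:**
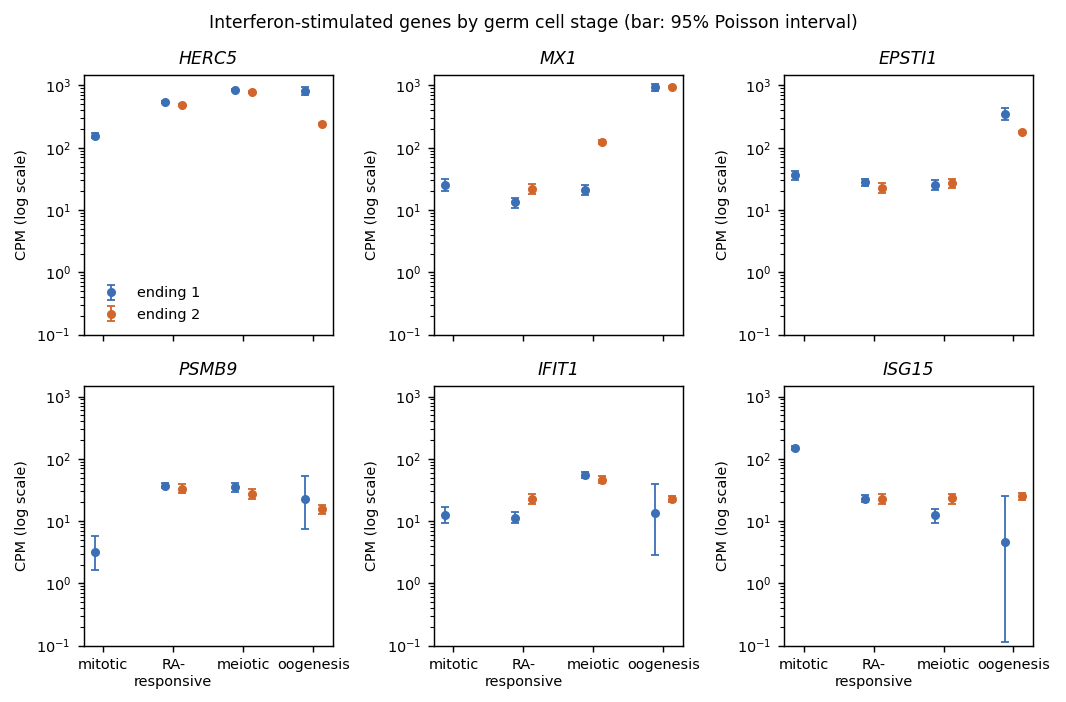
Level of 6 interferon-stimulated genes by germ cell stage, in CPM on a log axis, with ending 1 in blue, ending 2 in orange and exact 95% Poisson intervals as bars. HERC5 is high from the RA-responsive to the meiotic stage in both endings, MX1 and EPSTI1 are highest in the oogenesis-like stage of both endings, and groups under 20 cells are not drawn.

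HERC5 and MX1 had their highest germ cell levels at different stages. HERC5 was at 157 CPM (144 to 170.5) in mitotic-like cells of ending 1. In RA-responsive cells it was at 547 CPM (532 to 563) with ending 1 and 489 CPM (469.6 to 509) with ending 2, and in meiotic-like cells at 837 CPM (811 to 863) and 785 CPM (760.4 to 810.1). In oogenesis-like cells, which form follicles, it was at 829.6 CPM (713 to 959.7) in the 20 cells of ending 1 and at 237 CPM (228 to 247) with ending 2. HERC5 was thus higher in meiotic-like than in mitotic-like cells of ending 1, and lower in oogenesis-like than in meiotic-like cells of ending 2. After thinning, 50.9% and 48.1% of meiotic-like cells held a HERC5 UMI (75.02% and 61.2% without thinning), against 2.51% and 0.472% of erythroid-like cells.

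MX1 was at 13.3 CPM (11.0 to 15.8) and 21.9 CPM in RA-responsive cells and at 21.2 CPM (17.2 to 25.7) and 123 CPM (113 to 133) in meiotic-like cells. In oogenesis-like cells it reached 930.5 CPM (807 to 1068) and 959.5 CPM (941 to 978), with overlapping intervals. By sub-cluster it was at 995 CPM and 497 CPM in both oogenesis-like ones and at most 162 CPM in the meiotic-like ones. After thinning, 47.3% of oogenesis-like cells of ending 2 held an MX1 UMI (69.0% without thinning), against 5.66% of erythroid-like cells of that ending. MX2, next to MX1 in the genome, was at 4.58 CPM (1 UMI) and 1.40 CPM in oogenesis-like cells, so the pair had different levels over the stages.

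Other genes of the set had a stage of their own in germ cells, and these were chosen after their values were seen. EPSTI1 was at 353 CPM (279 to 441) and 179 CPM (171 to 187) in oogenesis-like cells and between 23.0 CPM and 36.0 CPM in earlier stages with at least 20 cells. DDX58 was at 44.4 CPM (40.5 to 48.6) in oogenesis-like cells of ending 2 and at 3.85 CPM (2.32 to 6.01) in meiotic-like cells. PSMB9 was at 37.3 CPM and 33.3 CPM in RA-responsive cells against 3.24 CPM (1.62 to 5.80) in mitotic-like cells, while its partner subunit PSMB8 stayed at 1.66 CPM and 3.10 CPM. ISG15 was at 149 CPM (136 to 162) in mitotic-like cells of ending 1 and between 4.58 CPM (1 UMI) and 24.9 CPM in later stages. The set therefore had no common course over the germ cell stages.

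Counted per cell, the difference between libraries was spread over most stroma-like and endothelial-like cells. The 35 genes other than IFI27 were summed in cells thinned to 1000 UMIs. Of stroma-like cells, 55.4% with ending 1 and 96.1% with ending 2 held at least 1 such UMI (81.6% and 98.9% without thinning), and the median was 1 and 5 UMIs. Sums of 10 or more were found in 0.428% and 16.7% of stroma-like cells. In endothelial-like cells the share with any UMI was 80.8% and 99.5%, and sums of 10 or more were found in 36.0% with ending 2 and in 0 of 130 cells with ending 1, which allows a share of up to 2.31%. Granulosa-like cells, in contrast, had means of 2.05 and 1.81 UMIs, and erythroid-like cells 0.435 and 1.02. Thinning left out 69 and 170 stroma-like cells that held fewer UMIs.

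**Figure D4:**
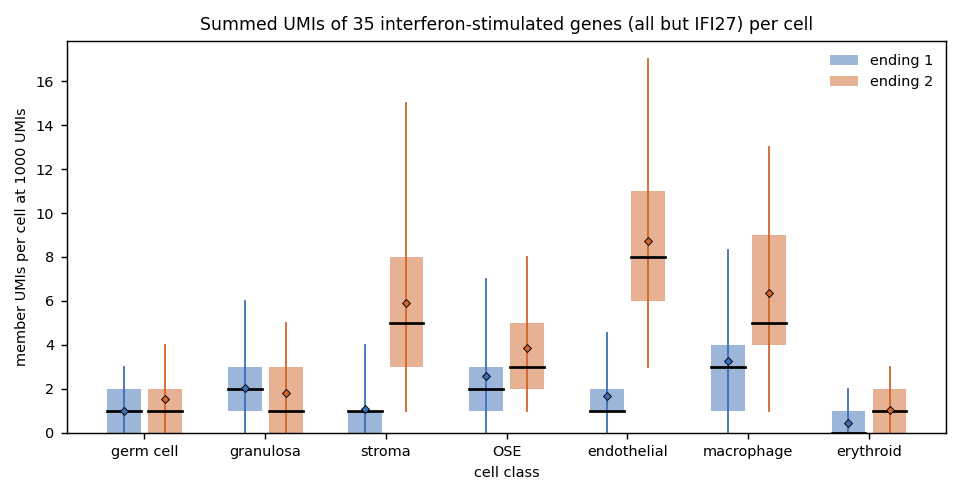
Summed UMIs of the 35 interferon-stimulated genes other than IFI27 per cell, by class and ending, after thinning each cell to 1000 UMIs; boxes span the 25th to 75th percentile, lines the 5th to 95th, black bars are medians and diamonds means. The box of ending 2 lies above that of ending 1 in stroma-like (medians 5 and 1) and endothelial-like cells, and the boxes overlap or meet in the other classes.

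Single genes gave the same order. After thinning, 1.02% of stroma-like cells of ending 1 and 38.4% of ending 2 held a BST2 UMI (4.49% and 79.6% without thinning). Of erythroid-like cells 0 of 439, which allows up to 0.683%, and 5.66% did. For IFI27 the shares were 25.7% and 95.3% (52.3% and 98.9% without thinning), against 7.97% and 50.0% of erythroid-like cells, a share that was itself higher with ending 2. For ISG15 they were 2.84% and 34.1% (9.75% and 67.3% without thinning), against 1.14% and 4.72%.

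Genes that act before and beside the set were read from a list of 97 further genes of the interferon pathway, 74 of which had a row. Of 14 interferon ligands, 3 had a row. IFNG, the type II interferon made by T and NK cells, had 33 UMIs in macrophage-like cells of ending 2, which is 33.5 CPM (23.0 to 47.0), in 5.83% of those cells. With ending 1 it had 0 of 102492 UMIs, which allows up to 29.3 CPM, so a difference was not detectable at this depth. IFNL1 had at most 17 UMIs in any class and ending, and IFNE had 1 UMI in granulosa-like cells. The type I genes IFNB1 and IFNA were not analysed here.

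Most receptors and kinases stayed within 2-fold. Of 4 measured receptors in stroma-like cells, 0 were at least 2-fold higher with ending 2 (4.94% of all genes) and 1 with ending 1 (8.65%). The latter was IL10RB, at 2.69 CPM and 1.30 CPM, which is 2.07-fold higher with ending 1. In stroma-like cells IFNAR1, a chain of the type I receptor, was at 83.3 CPM (77.2 to 89.8) and 59.3 CPM (55.6 to 63.0), IFNGR1 at 54.0 CPM and 59.1 CPM, and IFNGR2 at 66.7 CPM and 91.4 CPM. The kinases JAK1, JAK2 and TYK2 were at 111, 35.9 and 32.9 CPM with ending 1 and at 104, 36.0 and 39.0 CPM with ending 2.

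**Figure D5:**
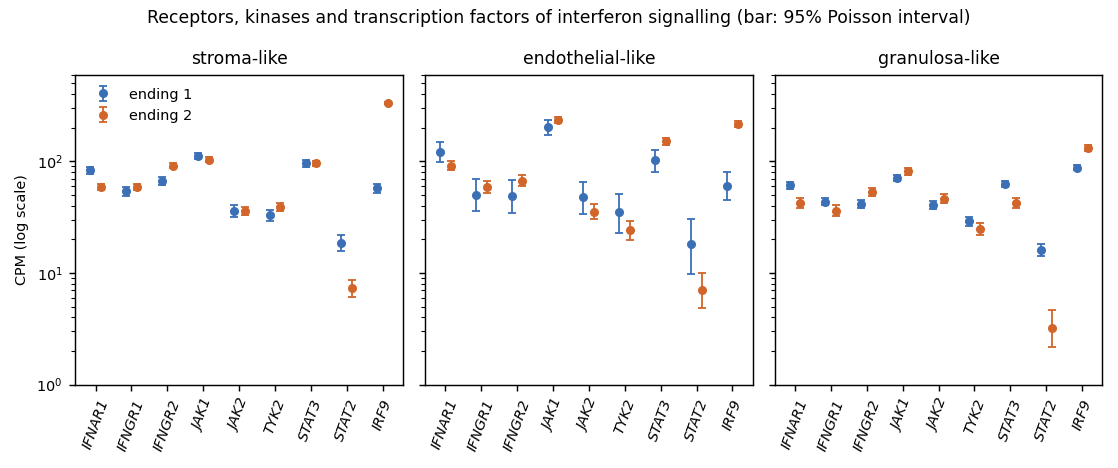
Level of interferon receptors, kinases, STAT genes and IRF9 in stroma-like, endothelial-like and granulosa-like cells, in CPM on a log axis, with ending 1 in blue, ending 2 in orange and exact 95% Poisson intervals as bars. IRF9 is higher with ending 2 than with ending 1 in stroma-like and endothelial-like cells, STAT2 is lower in all 3 classes, and the receptors and kinases drawn stay within 2-fold.

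Further interferon-stimulated genes outside the set differed in the same direction. In stroma-like cells 21 of 31 were at least 2-fold higher with ending 2 (4.94% of all genes) and 0 with ending 1 (8.65%). In endothelial-like cells 21 of 29 (7.82%) and 0 (6.07%) were. In granulosa-like cells 4 of 30 were higher with ending 2 (5.22% of all genes) and 2 with ending 1 (19.1%). In germ cell-like cells 5 of 28 (10.0%) and 1 (10.6%) were. In stroma-like cells CXCL10, a chemokine that draws T cells, was at 3.67 CPM and 149.7 CPM, a ratio of 40.9 (28.5 to 60.7). LY6E, a membrane protein that limits coronavirus entry, was at 151 CPM and 471 CPM. Among 8 sensors and adaptors 3 were higher with ending 2 in stroma-like cells (4.94% of all genes), including DHX58 (LGP2), at 9.04 CPM and 55.9 CPM. Among 8 antigen-presentation genes 4 were, including HLA-E, at 47.4 CPM and 356 CPM, a ratio of 7.51 (6.77 to 8.34). Of 3 negative regulators 0 passed 2-fold, SOCS3 being at 13.1 CPM and 7.21 CPM. CXCL10, DHX58, HLA-E and SOCS3 were chosen after their values were seen.

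Immediate early and heat shock genes, which respond to tissue dissociation, were compared between endings in the same way. In stroma-like cells 0 of 12 differed by 2-fold in either direction (4.94% of all genes were higher with ending 2 and 8.65% with ending 1). Their median ratio was 1.08, with summed levels of 20375 CPM and 23189 CPM. In endothelial-like cells 3 of 12, DUSP1, ZFP36 and HSPA8, were higher with ending 2 (7.82% of all genes) and 0 with ending 1 (6.07%). The median ratio there was 1.33, with sums of 13135 CPM and 20829.9 CPM. In granulosa-like cells 9 of 12 were higher with ending 1 (19.1% of all genes). The part of dissociation in the ratios of the set was not tested.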

How the data were processed

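RNA was measured in single cells of 2 fetal ovary libraries. The authors deposited UMI counts that are not normalized, made with Cell Ranger 3.0.2 per the submitters' processing notes and merged into 1 table of 18446 genes and 20967 cells (148824177 UMIs). All cells of the table were kept (4675 hold over 3000 genes, and leaving these out was an alternative), and of its gene names 3213 are Ensembl identifiers without a symbol. The members and lists were chosen with earlier results of these data known. Counts were log-normalized and clustered with Seurat 5.3.0 in R 4.3.3 (2000 variable genes without members and pathway genes, 18 components, 20 neighbours, resolution 0.6). A cluster was named from at least 3 markers that were 1.5-fold above the other cells (10 CPM added) in at least 5% of its cells, unless another class had more markers among its 10 leading genes. Germ cells were re-clustered and named by stage. The Scrublet caller (scanpy 1.11.5) marked 0 cells and so did not work, and removing the 8% of cells with the highest scores was an alternative. Summed UMIs were given as CPM with exact Poisson intervals, ratios with exact conditional binomial intervals (scipy 1.17.1), for genes with at least 30 UMIs in both endings together. Shares were taken after thinning each cell to 1000 UMIs, with exact binomial intervals. Intervals cover counting error only. The ratio code was checked on simulated data. Genes named with values have the highest level in their role, the highest ratio of leading to next class, or the highest ratio between endings, and others are marked. Genome neighbours follow RefSeq for assembly T2T-MFA8v1.1, another build than that of the files, from which no coordinates were used. No promoter sequence was used here. A few genes of the lists are not reported here.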

Additional observations from a re-analysis of the deposited data

Results flagged for a closer look

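Some genes moved in opposite directions between endings in 2 classes, with intervals on opposite sides of 0, and none of these differences was tested. Values are log2 ratios of ending 1 over ending 2. In granulosa-like against endothelial-like cells CMPK2 was at 1.59 and -3.05, DDX58 at 0.67 and -2.89, RSAD2 at 0.68 and -2.26, and XAF1 at 0.75 and -2.01, and the difference was not tested. In granulosa-like against stroma-like cells IFI44 was at 0.73 and -3.58 and IFI6 at 1.05 and -2.59, which was not tested either. OAS2 was at 1.17 in germ cell-like and -3.26 in stroma-like cells, a difference that was not tested. The granulosa-like values rest on cells whose median mitochondrial share was 10.5% with ending 1 and 41.8% with ending 2.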

How the results depend on the processing

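No paired analysis was possible because each embryonic day has 1 library and no test was made. The number of genes higher with ending 2 stayed between 25 and 33 in stroma-like and between 26 and 33 in endothelial-like cells over the other settings tried, apart from single clusters. In granulosa-like cells it was 5 and became 8 with only cells of 200 to 3000 genes, 3 at resolution 0.4, 12 with each ending clustered separately, 8 without cells over 10% mitochondrial UMIs and 16 in cluster 14 alone, which was chosen after seeing the data. Counting cluster 7 as granulosa-like, also chosen after seeing the data, left it at 5, and leaving out barcodes found with both endings left each of these counts as it was. In germ cell-like cells it was 10 and became 16 both with 200 to 3000 genes and with the mean CPM of single cells, and 18 without the germ cells given no stage, which was chosen after seeing the data. In ovarian surface epithelium-like cells it was 8 and became 4 after thinning to 1000 UMIs, and the number of genes highest in endothelial-like cells went from 22 of 36 to 14 of 34. The log2 ratio of MX1 in oogenesis-like over meiotic-like cells was 3.72, and became 4.39 with 200 to 3000 genes, 3.96 at resolution 0.4, 3.50 with 30 components, 3.87 with the set allowed among the variable genes, 3.88 without cells over 10% mitochondrial UMIs and 2.92 as a mean of single cells. For HERC5 in meiotic-like over mitotic-like cells it was 2.37, and became 2.64 with 200 to 3000 genes, 2.56 without cells over 10% mitochondrial UMIs, 2.51 without mitochondrial and hemoglobin genes in the total and 2.22 as a mean of single cells. The ratio of HERC5 between endings in germ cell-like cells reversed to -0.23 without cells over 10% mitochondrial UMIs. The share of cells with a UMI of the 35 genes went to 74.4% (2000 UMIs) and 81.6% (no thinning) in stroma-like cells of ending 1, 99.6% and 98.9% in those of ending 2, and 92.6% and 92.5% in endothelial-like cells of ending 1. The cause of these changes was not tested. Depth is low in ending 1 for endothelial-like (147 cells), macrophage-like (40 cells) and pericyte-like cells (10 cells).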
